A study of Homo sapiens with 2 samples.

Results

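Molecular chaperones bind unfolded or misfolded proteins and help them fold, assemble or reach degradation, and 89 genes of this kind, of 14232 genes measured by name, are described here. They were chosen by a rule on symbols, made with earlier results of these data known. The rule takes the HSP70 (HSPA, HSPH), HSP90, small heat shock (HSPB), HSPD and HSPE, DNAJ, CCT, BAG, PDIA and EDEM series, with TCP1, HYOU1, CALR, CANX, SERPINH1, MANF, CRELD2, SDF2L1, HERPUD1, XBP1, HSF1 and HSF2 added by name. J82 is a long-established cell line from a human bladder cancer. Its cells, grown in DMEM with serum and given no treatment, were stained with the DNA dye Hoechst and sorted by flow cytometry into a side population (SP), which keeps little dye, and a non-side population (NSP), which keeps more. Total RNA of each was hybridised to 1 human exon array, so there is 1 sample of SP and 1 of NSP. No difference below has a replicate error or a p-value, and the number of arrays limits the precision of every value. Differences are given as SP minus NSP in log2 signal, and a fold is 2 raised to the size of the difference.

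In the cytosol, HSP70 proteins bind exposed hydrophobic stretches. J-domain (DNAJ) partners and nucleotide exchange factors, among them several BAG proteins and the HSP110 proteins, control this binding. HSP90 and the ring-shaped chaperonin CCT act on later folding steps, and the transcription factor HSF1 raises many of these genes when proteins unfold in heat. In the endoplasmic reticulum (ER), HSPA5 (BiP), calnexin, calreticulin and the disulfide isomerases fold secretory proteins. The unfolded protein response there runs through the sensors ATF6, IRE1 (ERN1) and PERK (EIF2AK3), with XBP1 and ATF4 as transcription factors downstream of IRE1 and PERK.

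The arrays had medians of 7.43 (SP) and 7.44 (NSP), and the median over both arrays together, 7.44, is called the floor. A gene reached the floor if its higher value did, as 7549 genes did. Among 11 measured urothelial and carcinoma markers, KRT8, KRT18, KRT19, KRT7 and PPARG reached the floor, as did all 3 mesenchymal markers. The uroplakin genes UPK1A, UPK1B, UPK2 and UPK3A, the adhesion gene EPCAM and GATA3 did not. PPARG (difference 0.69) and KRT8 (0.42) were higher in SP by more than 1.3-fold, while KRT18 (0.25), KRT19 (0.15) and KRT7 (0.02) differed less. The leukocyte marker PTPRC lay at 3.74 in SP and 3.80 in NSP, and none of the 3 endothelial markers reached the floor. Of 4 measured immune markers CD14 and CD68 reached it. ABCG2, the classical Hoechst transporter gene, was at 6.14 in SP and 5.69 in NSP, both under the floor.

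Most chaperone genes measured here differed little between the populations, as did most genes on the arrays. Genes named only on probe sets with several symbols were left out, among them HSPA1A, HSPA1B, HSPA6, HSPA9, HSP90AB1, HSP90B1 and PDIA3. Of the 89 members, 68 reached the floor, and 5 of those (7.35%) differed by 1.3-fold or more, 3 higher in SP and 2 lower. Over all genes at the floor 13.6% differed that much, 6.74% higher and 6.9% lower. Too few members are counted to read a difference from these shares. At 1.5-fold 1 member was higher and 0 were lower, against 3.1% and 1.43% of all genes. With no floor, 4 of the 89 members were 1.3-fold higher and 4 lower, against 5.69% and 5.3% of all genes. Among the 36 members whose higher value was at least 9, 2 were 1.3-fold higher and 1 lower (8.33% and 6.41% of all genes at that level), and 0 reached 1.5-fold in either direction (4.4% and 1.32%). The median difference of the 68 members was -0.02, against -0.05 over all genes at the floor, and it turned to 0.04 when the differences were centred on that -0.05. Of the 68 members, 29 were higher in SP and 38 lower (55.9%), against 59.6% lower over all genes at the floor. This balance turned with the scaling, to 39 higher and 29 lower when centred on the genes at the floor and to 41 and 27 with the lowess trend on signal level removed. The SD across members was 0.218, against 0.281 across all genes. A difference smaller than 0.2 in size was found for 51 of 68 members (75%), against 60.0% of all genes. Each array averages a sorted population, so fewer cells carrying a transcript and less of it per cell cannot be told apart.

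**Figure D1:**
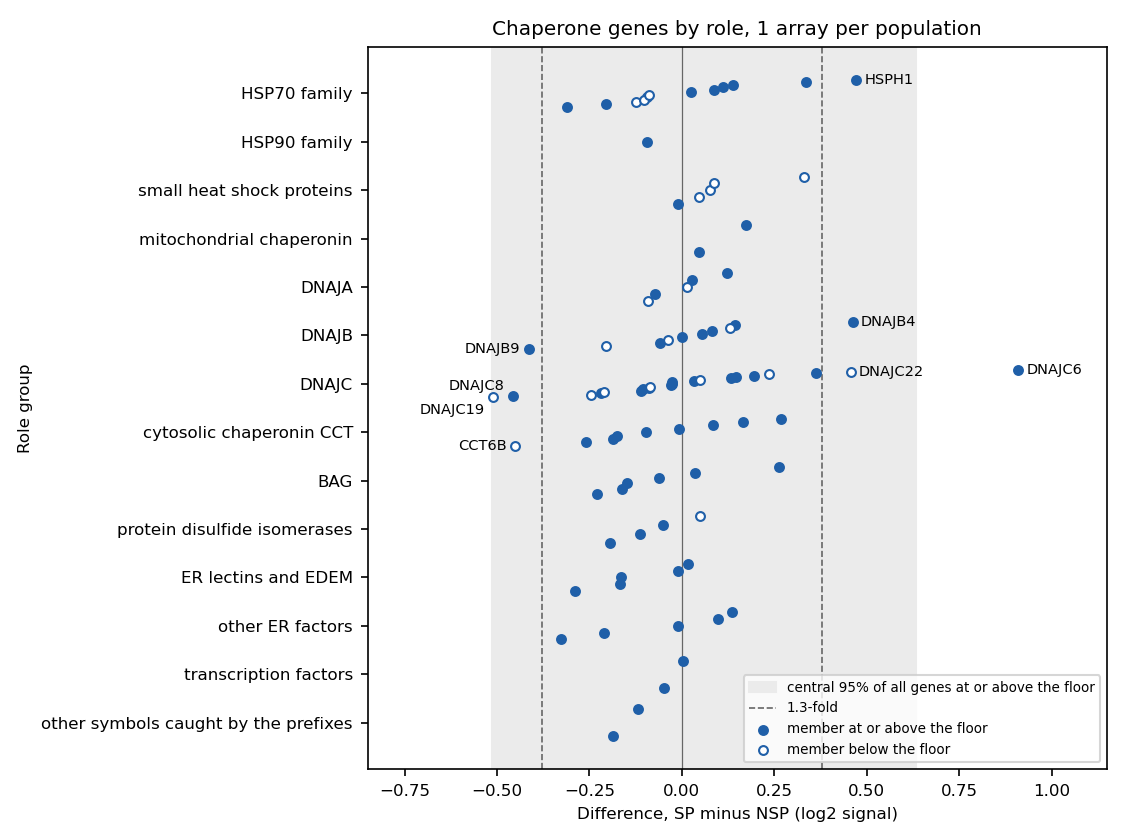
Each point is 1 of the 89 genes, placed by its difference (x axis, SP minus NSP, log2 signal) and its role group (y axis); filled points reached the floor, open points did not, dashed lines mark 1.3-fold and the grey band holds the central 95% of all genes at the floor, from -0.51 to 0.63. DNAJC6, at 0.91, is the only filled point outside the band.

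The gene furthest above NSP in SP was DNAJC6, which encodes auxilin, the J-domain protein that brings HSPA8 to clathrin-coated vesicles to remove their coat. Its signal was 8.27 in SP and 7.36 in NSP, a difference of 0.91 (1.88-fold), the 62nd highest of the 7549 genes at the floor. The NSP value lay just under the floor, so with both values required to reach it 0 members were 1.5-fold higher, against 2.8% of all genes.

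HSPH1 and DNAJB4 followed. HSPH1 (HSP105), an HSP110 protein that exchanges the nucleotide of HSP70, was at 10.93 in SP and 10.45 in NSP, 1.39-fold higher. DNAJB4, a cytosolic J-domain partner of HSP70, was at 10.17 in SP and 9.71 in NSP, 1.38-fold higher. These were the only members beyond 1.3-fold whose values were at 9 or more on both arrays. In the ranking of all genes at the floor they stood at 356 and 372 from the top, inside the central 95%.

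On the lower side DNAJC8, which encodes a J-domain protein associated with the splicing machinery, was at 8.16 in SP and 8.62 in NSP, 1.37-fold lower. DNAJB9 (ERdj4), an ER-lumen partner of HSPA5 that the IRE1 and XBP1 branch is known to induce, was at 8.61 in SP and 9.02 in NSP, 1.33-fold lower. Its difference of -0.41 shrank to -0.34 with the trend on signal level removed, to -0.38 with quantile normalisation and to -0.36 with differences centred on the genes at the floor, each just short of 1.3-fold (0.38). Just short of 1.3-fold on the higher side were DNAJC3 (0.36) and HSPA4L (0.34). DNAJC3 passed it under the same scalings, at 0.43, 0.40 and 0.42, and HSPA4L passed it with the centring only, at 0.39.

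**Figure D2:**
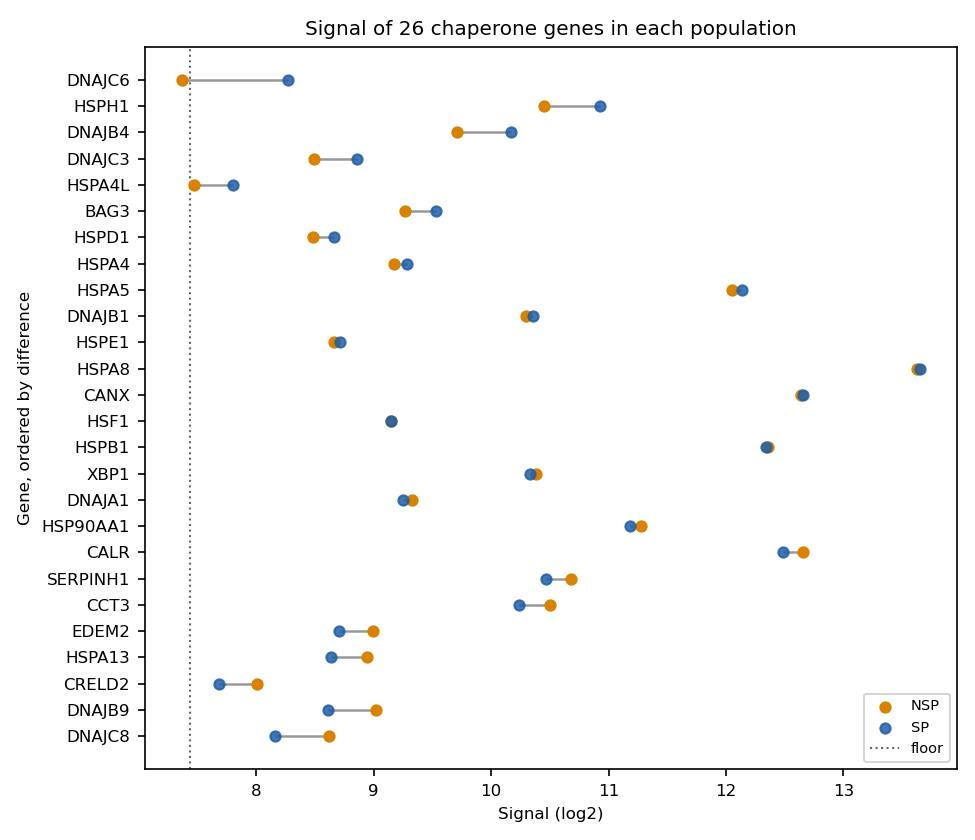
The x axis gives the log2 signal of 26 chaperone genes in SP (blue) and NSP (orange), joined by a line for each gene; genes are ordered by difference and the dotted line is the floor of 7.44. The separation is widest for DNAJC6 (8.27 against 7.36), while the points of HSPA8, CANX, HSF1 and HSPB1 lie almost on each other.

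The HSP70 family held 12 measured genes, of which 9 reached the floor, 6 higher in SP and 3 lower, with a median of 0.09. Over all 12, with the dim members included, 6 were higher and 6 lower, with a median of -0.03. Its best known cytosolic member, the constitutive HSPA8 (HSC70), was at 13.65 in SP and 13.63 in NSP, and HSPA5, its ER counterpart, at 12.14 and 12.05. Their differences were below 0.1 in size. HSPA4 (0.11) and HSPA4L (7.80 in SP and 7.47 in NSP) belong with HSPH1 to the cytosolic HSP110 group, a grouping that was not planned. All 3 were higher in SP, against 40.1% of all genes at the floor. Trend removal, quantile normalisation and centring on the genes at the floor each moved these 3 values up, so none could turn lower. HYOU1, the HSP110 protein of the ER, was lower by a small margin (9.75 and 9.85, -0.09). HSPA14, a ribosome-associated HSP70, had a difference of 0.14 and its J-domain partner DNAJC2 one of 0.20. The lowest HSP70 member was HSPA13, a microsomal form, at 8.63 in SP and 8.94 in NSP (-0.31), followed by HSPA12A (-0.21). HSPA1L, HSPA2 and HSPA12B lay under the floor, with differences from -0.12 to -0.09. The stress-inducible HSPA1A and HSPA1B, which are nearly identical, and the mitochondrial HSPA9 were named only by probe sets that carry several symbols and were not analysed here.

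HSP90AA1, the inducible cytosolic HSP90, was at 11.18 in SP and 11.28 in NSP (-0.09). It was the only HSP90 gene with a probe set of its own, since HSP90AB1 and the ER form HSP90B1 were not analysed here. Among small heat shock proteins, which hold unfolded proteins in a soluble state, HSPB1 (HSP27) was at 12.35 in SP and 12.36 in NSP. The other 4 measured, HSPB3, HSPB6, HSPB7 and HSPB9, lay under the floor, and HSPB9 had the widest difference of them (0.33). The mitochondrial chaperonin subunits HSPD1 (HSP60) and HSPE1 (HSP10) were slightly higher in SP, at 8.66 against 8.49 and at 8.71 against 8.67. RefSeq names 22 pseudogenes after HSPD1, 28 after HSPE1 and 20 after HSPA8, so their probe signals are uncertain.

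J-domain proteins choose the substrates of HSP70 and switch on its ATPase. Their measured genes numbered 5 in the DNAJA, 10 in the DNAJB and 21 in the DNAJC series, with medians at the floor of 0.03, 0.05 and -0.03, the last turning to 0.03 with the trend removed. DNAJB1 (HSP40), a textbook heat shock gene, was at 10.35 in SP and 10.30 in NSP, and DNAJA1 at 9.25 and 9.32. DNAJB2 had the same value of 7.63 on both arrays to all deposited decimals. The DNAJC series had the largest SD, 0.315 over its 14 genes at the floor, from DNAJC8 (-0.46) to DNAJC6. That width rests largely on DNAJC6 (0.91), which reached the floor in SP only. The next highest of the series was DNAJC3 (0.36), and the DNAJB series ran from -0.41 to 0.46 at the floor. DNAJC21, which acts in ribosome assembly, had a difference of 0.15, DNAJC13, an endosomal J protein, one of 0.03 and DNAJC24, which acts in diphthamide synthesis, one of -0.22. Under the floor, DNAJC19, a subunit of the mitochondrial import motor, was at 5.25 in SP and 5.76 in NSP, and DNAJC22 at 5.75 and 5.29. The 21 members under the floor had 10 higher and 11 lower values in SP, with differences from -0.51 to 0.46. DNAJA1P5, a pseudogene that the symbol rule takes in, was one of them, at 4.36 in SP and 4.35 in NSP.

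The cytosolic chaperonin CCT, a double ring that folds actin and tubulin, is built from several kinds of subunit, and its genes lay on either side of 0. CCT5 was at 11.48 in SP and 11.31 in NSP (0.17), and CCT2 at 10.31 and 10.23 (0.08). CCT4 (-0.01) and CCT6A (-0.10) were close to level, while CCT7 (-0.17), CCT8 (-0.19) and CCT3 (10.24 in SP and 10.50 in NSP, -0.26) were lower. All of these lay inside the central 95% of all genes at the floor. CCT8L2, a gene similar to CCT8 that is no subunit of the usual ring, had a difference of 0.27, and CCT6B, a testis form, lay under the floor (-0.45). TCP1, the remaining subunit, was not analysed here.

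Several BAG proteins release nucleotide from HSP70. BAG3, which links HSP70 clients to autophagy and is a known HSF1 target, was at 9.53 in SP and 9.27 in NSP (0.26). BAG1 had a difference of 0.04, and BAG2 (-0.15), BAG4 (-0.16), BAG5 (-0.23) and BAG6 (-0.06) were lower, so that 2 of 6 were higher in SP, or 3 of 6 with the trend removed. HSPBP1, another HSP70 exchange factor, had a difference of -0.19. HSF1 was at 9.15 in SP and 9.15 in NSP, a difference of 0.00, and HSF2 was not analysed here.

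In the ER, DNAJB9 was the only member at the floor past 1.3-fold as the values were deposited, and DNAJC3 took that place under the 3 other scalings named for it. Of 22 members placed there from textbook knowledge, a split made after the values were seen, 21 reached the floor, with 6 higher and 15 lower in SP (71.4% lower, against 59.6% of all genes) and a median of -0.06, against -0.05 for all genes. With the trend on signal level removed 11 were higher and 10 lower, and with centring on the genes at the floor 10 and 11. The 47 members not placed in the ER that reached the floor had 23 higher and 23 lower and a median of 0.00. With the trend removed they had 30 and 17. The difference between these medians was not tested. The placing was incomplete, since the ER J proteins DNAJB12 (0.08), DNAJC16 (-0.09) and DNAJC18 (-0.03) were counted among the 47.

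The lectin chaperones that hold sugar-bearing proteins differed little, with calnexin (CANX) at 12.65 in SP and 12.64 in NSP and calreticulin (CALR) at 12.49 and 12.66. EDEM proteins, which mark misfolded glycoproteins for degradation, ran from -0.01 for EDEM1 through -0.16 for EDEM3 to -0.29 for EDEM2 (8.70 in SP and 8.99 in NSP). All 3 disulfide isomerase genes at the floor were lower in SP: PDIA4 by 0.19 (8.93 and 9.13), PDIA6 by 0.11 (10.87 and 10.99) and PDIA5 by 0.05. With the trend removed, or centred on the genes at the floor, 1 of the 3 was higher. PDIA2 lay under the floor (0.05), and PDIA3 was not analysed here. The lectin and EDEM group had a median of -0.16 and the isomerases one of -0.11, and these medians stayed below 0 under every scaling tried.

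Among the remaining ER factors CRELD2, which ER stress is known to induce, was at 7.68 in SP and 8.01 in NSP (1.26-fold lower). SERPINH1 (HSP47), the collagen chaperone, was at 10.47 and 10.68 (-0.21). MANF, a secreted ER stress protein, was level at 9.97 and 9.98. SDF2L1 (0.10) and HERPUD1 (10.69 in SP and 10.56 in NSP, 0.14), a membrane factor of ER-associated degradation, were higher by small margins. Of the other J proteins placed in the ER, DNAJC3 (P58IPK), which restrains PERK, was at 8.85 in SP and 8.49 in NSP (1.29-fold higher). DNAJB11 (-0.06) and DNAJC10 (-0.03) were close to level, and DNAJC1 was at 0.13. XBP1 was at 10.33 in SP and 10.38 in NSP. The array measures its total transcript, and IRE1-dependent splicing was not analysed here.

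Protein stress is known to act through short DNA elements in promoters, and those of 9 members with a match are printed as examples. A search of RefSeq promoter windows (250 bases before to 50 after each annotated start, GRCh38.p14), on both strands, found a window for 78 of the 89 members. The ER stress response element, searched as CCAAT and CCACG with 9 free bases between them, which binds NF-Y with ATF6 or XBP1, was present for 6 members (7.69%), against 0.0916% of all genes with a window. Its variant, the ER stress response element II, ATTGG and CCACG with 1 free base between them, was present for 3 members (3.85%), against 0.0696%. The heat shock element, searched as GAA, TTC and GAA with 2 free bases between neighbours, was present for 5 members (6.41%), against 0.608%. The other 64 members with a window held none of the 3. No match was found for DNAJB1, BAG3 or DNAJB9, described above as known stress genes. These elements were first described in promoters of stress genes such as these, so the larger shares among members are no independent result. No match of one element overlapped a match of another. Each sequence below is written 5′ to 3′ along the gene's strand, with the element in capitals.
HSPA5, ER stress element, chr9:125241371-125241429, minus strand: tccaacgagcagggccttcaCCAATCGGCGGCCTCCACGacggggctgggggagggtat
CALR, ER stress element on the opposite strand, chr19:12938364-12938422, plus strand: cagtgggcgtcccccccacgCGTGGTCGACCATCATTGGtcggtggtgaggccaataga
CRELD2, ER stress element on the opposite strand, chr22:49918534-49918592, plus strand: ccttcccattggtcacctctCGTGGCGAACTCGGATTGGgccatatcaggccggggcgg
PDIA6, ER stress element, chr2:10812833-10812891, minus strand: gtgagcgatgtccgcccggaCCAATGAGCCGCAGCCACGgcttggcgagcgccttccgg
HERPUD1, ER stress element II, chr16:56932005-56932055, plus strand: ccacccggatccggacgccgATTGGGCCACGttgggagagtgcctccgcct
HYOU1, the nearer of 2 matches of ER stress element II, on the opposite strand, chr11:119057254-119057304, minus strand: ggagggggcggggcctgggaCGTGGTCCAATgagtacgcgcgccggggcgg
HSPA8, the nearer of 2 matches of the heat shock element, on the opposite strand, chr11:123062159-123062211, minus strand: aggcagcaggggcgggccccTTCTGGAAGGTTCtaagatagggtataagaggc
HSP90AA1, heat shock element on the opposite strand, chr14:102087100-102087152, minus strand: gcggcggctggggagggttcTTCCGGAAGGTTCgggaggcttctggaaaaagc
SERPINH1, heat shock element on the opposite strand, chr11:75562157-75562209, plus strand: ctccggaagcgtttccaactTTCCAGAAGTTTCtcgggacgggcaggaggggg

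The members that carry these elements lay on either side of 0. The 6 with the ER stress element were CALR, CANX, CRELD2, HSPA5, PDIA6 and XBP1, with a median difference of -0.08 and a range from -0.33 to 0.09. The 3 with element II were HERPUD1, HYOU1 and SDF2L1, with a median of 0.10 and a range from -0.09 to 0.14. The 5 with the heat shock element were DNAJA1, HSP90AA1, HSPA8, HSPD1 and SERPINH1, with a median of -0.07 and a range from -0.21 to 0.17. Of these 14 genes, all at the floor, 0 reached 1.3-fold in either direction, against 13.6% of all genes at the floor, and too few genes are counted here to read a difference from that share. A match is a description of letters in the window, and other forms of these elements were not searched.

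Of 57 other genes of protein folding and ER stress, 44 were measured and 40 reached the floor, and 4 of these were higher in SP by 1.3-fold or more and 0 lower (6.74% and 6.9% of all genes). All 4 were regulators linked to the PERK branch, though not to it alone, and activity of that branch was not tested. EIF2AK3, which encodes PERK, was at 8.92 in SP and 8.11 in NSP (1.75-fold higher). Its downstream transcription factor gene ATF4 was at 10.13 and 9.34, DDIT3 (CHOP) at 9.54 and 8.78, and ATF3 at 9.75 and 8.69. The IRE1 gene ERN1 had a difference of 0.27, and ATF6 one of 0.03. TRIB3, a further target of ATF4 and CHOP, was level (9.11 and 9.12), and PPP1R15A (GADD34) had a difference of 0.20. The values of HSPA5, XBP1 and HERPUD1 above differed by 0.14 or less beside these regulators. Other members placed in the ER differed more and in both directions, among them DNAJB9 (-0.41), CRELD2 (-0.33) and DNAJC3 (0.36).

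The degradation and folding genes of the same list that reached the floor had differences under 1.3-fold, from ERP29 (-0.32) and DERL2 (-0.32) to SEC61A1 (0.10) and SIL1 (0.14). The co-chaperone and prefoldin list holds HSP90 partners and prefoldin subunits, which pass substrates to HSP90 or CCT, and also the mitochondrial GRPEL1, GRPEL2 and CLPB, the ubiquitin ligase gene STUB1 and HSF4. Of its 15 genes at the floor 12 were lower in SP and 3 higher, with a median of -0.19, against 59.6% lower and a median of -0.05 over all genes. That count was the same under every scaling tried. STIP1 (HOP), the adaptor between HSP70 and HSP90, was at 11.27 in SP and 11.40 in NSP, and FKBP4 at 10.62 and 10.91. PFDN4 was lowest of those at the floor (-0.32). The lowest values of the whole list lay under the floor, for CHORDC1 (6.56 in SP and 7.14 in NSP) and CLGN (5.82 and 6.17). CDC37 and P4HB were not analysed here.

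**Figure D3:**
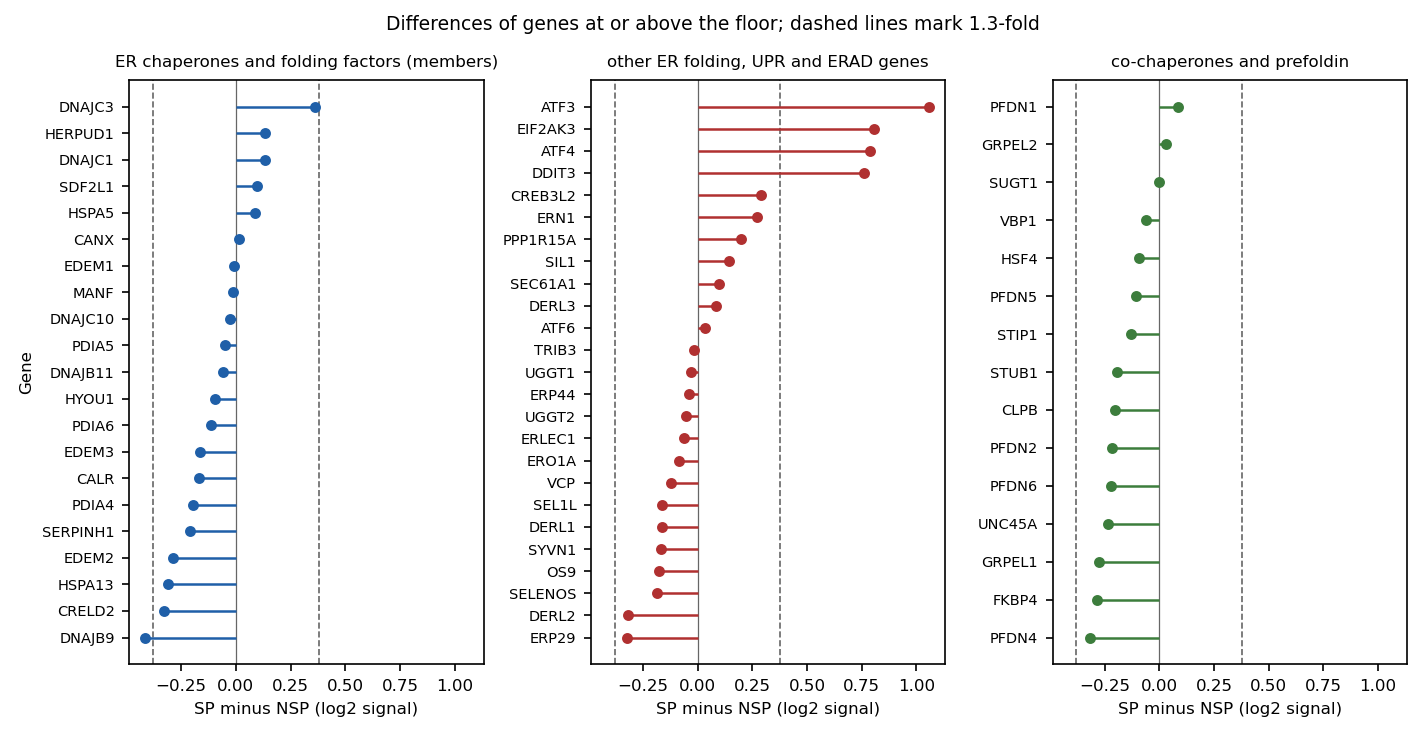
Differences (x axis, SP minus NSP, log2 signal) of genes at the floor: 21 members placed in the ER (left), 25 other genes of ER folding, the unfolded protein response (UPR) and ER-associated degradation (ERAD, middle), and 15 co-chaperone and prefoldin genes (right), with dashed lines at 1.3-fold. ATF3, EIF2AK3, ATF4 and DDIT3 stand between 0.76 and 1.06, and DNAJB9 is the only other gene beyond a dashed line.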

How the data were processed

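The values are log2 signals per probe set that the authors deposited as a processed table, made with RMA and Partek per the submitters' processing notes. RMA in general subtracts background, equalises arrays and compresses differences of dim probe sets. The log2 scale was read from RMA and the range of values. Not given in the sources used here: software versions and the probe set definition. Of 22011 probe sets the platform annotation gave 1 symbol for 14432, several for 2408 and none for 5171. Symbols were updated by Entrez ID through RefSeq (GRCh38.p14), which matched 14404. Probe sets of a gene were averaged, and 1 member, DNAJB13, had more than 1. Of 110 protein-coding genes under the symbol rule, 87 were measured, 21 appeared only on probe sets with several symbols and 2 on none. DNAJA1P5 and DNAJB3, which RefSeq does not list as protein coding, complete the 89.

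No test was run, since each population has 1 array. A gene was counted as different at 1.3-fold or 1.5-fold if its higher value reached the floor. Members and lists were chosen with earlier results of these data known. Named genes were members past 1.3-fold at the floor, the extremes of each of the 14 role groups and a fixed set of known chaperones and stress sensors. Of the other pathway genes, those past 1.5-fold and the 2 highest and 2 lowest were named. Further genes (among them DNAJC3, HSPA4L, BAG4, DNAJC2, FKBP4 and TRIB3) were named after their values were seen. A count at 1.5-fold, without the floor, was tried on simulated arrays with known shifts and little noise. It says nothing of the error of the counts given here. Python 3.11.15, numpy 2.4.6, pandas 2.3.3, statsmodels 0.14.6 and matplotlib 3.10.9 were used.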

Additional observations from a re-analysis of the deposited data

How the results depend on the processing

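The count of members at least 1.3-fold lower in SP was 2. It was 4 with no low-signal filter, and 1 with the lowess trend on signal removed (span 0.3), with quantile normalisation, with a higher value of at least 9 required and with differences centred on the genes at the floor. The last setting gave 5 members at least 1.3-fold higher in SP in place of 3. The count of members at least 1.5-fold higher, 1, became 0 with both values at the floor and with the filter at 9. Without a low-signal filter 1 other pathway gene, CHORDC1, was lower by 1.3-fold or more. The filter at 9, the role group medians under other filters, the centring on genes at the floor and the split of members by the ER were chosen after seeing the data. The cytosolic HSP110 group was not planned either. The members' median ran from -0.03 with no filter to 0.04 with the trend removed. Medians of role groups moved by more than 0.1 in 2 cases, to -0.032 for the HSP70 family with no low-signal filter and to -0.074 for DNAJA with the filter at 9. Centring on all genes changed nothing, since their median was 0.00. Over the 133 members and other pathway genes under the 3 settings that could move single values (trend removed, quantile normalisation, centring on the genes at the floor), 390 of 399 values stayed on the same side of 1.3-fold, and no gene beyond it changed sign. The exceptions at the floor were DNAJB9, DNAJC3 and HSPA4L, with the values given above. Under the floor they were CLGN (-0.40 with the trend removed) and HSPB9 (0.38 with centring on the genes at the floor). Most of the 133 genes lay within 1.3-fold as deposited, and the settings moved values little, by 0.05 with the centring. The count of 390 therefore says little about genes beyond 1.3-fold, and a change of sign there was hardly possible. Of the 5 members beyond it at the floor, DNAJB9 fell short under all 3 settings. No paired analysis was possible because each population has 1 array.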
